A study of Mus musculus with 12 samples.

Results

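The Pkd2-/- clone of mIMCD3, a cell line from the inner medullary collecting duct of the mouse kidney, was compared with the unedited wild-type (Wt) cells of the same line across every gene whose mean over the 8 libraries reached 10 normalized counts. These were 13616 of the 47642 genes listed. RNA was sequenced from 4 dishes of Wt cells, 4 of the Pkd2-/- clone and 4 of a Pkd1-/- clone, taken 4 days after full confluency, and the Pkd1-/- libraries serve here as background. All cells carry the early region of the virus SV40, a transgene of the mice the line was made from that keeps the cells dividing. The Pkd2-/- cells lack a stretch of Pkd2 that was removed with TALENs, a pair of engineered nucleases. The 4 mutant libraries are dishes of 1 clone, so p-values measure the spread between dishes, and an effect of the loss of Pkd2 cannot be told apart from other differences between this clone and the Wt cells. In such bulk RNA, fewer cells of a type and less RNA per cell cannot be told apart either.

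Pkd2 encodes a cation channel that passes calcium and sits in the endoplasmic reticulum and in the primary cilium, the antenna of tubule cells, where it forms a complex with the large receptor-like product of Pkd1. Loss of either gene causes autosomal dominant polycystic kidney disease, in which tubules, among them the collecting duct, widen into cysts. The collecting duct sets the final water and salt content of urine, and its inner medullary end lives in a tissue of high osmolarity and low oxygen.

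The 8 libraries summed to between 25966273 and 28027792 normalized counts and held 18611 to 19198 genes above 0. The median coefficient of variation of a tested gene was 7.41% among the Wt and 7.91% among the Pkd2-/- libraries. Of 17 principal cell markers, 10 passed the filter, among them the kidney cadherin Cdh16 (1947 to 2059 in Wt and 2193 to 2402 in Pkd2-/-) and Tfcp2l1 (1342 to 1698 in Wt and 1595 to 2138 in Pkd2-/-), while the water channel genes Aqp2 and Aqp4, which define the mature cell, were at 0 in all 8 libraries. Of the 10 that passed, 6 were higher and 3 lower in Pkd2-/- at limma's adjusted p under 0.05. The steepest fall among them was that of the sodium channel gene Scnn1g (log2 fold change -1.86). Of 13 endothelial markers, 0 passed the filter. Markers at 0 in all 8 libraries included Thy1 of fibroblasts, Slc34a1 of proximal tubule and Itgam and Cd3e of leukocytes, but other members of their lists were expressed. Of 17 proximal tubule markers 3 passed the filter, and the 17 summed to 723 to 820 in Wt and 926 to 1395 in Pkd2-/- libraries. Of 14 markers of fibroblasts and smooth muscle 3 passed, and of 13 leukocyte markers also 3.

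The targeted gene comes first, to see whether its level can check the labels. Per the study the deletion spans chr5:104478281-104490878, 12598 bases that hold exons 4 to 9 of the 15 exons of the transcript Pkd2-201 in GRCm38. The study names no build beside these positions, and in GRCm38 the deletion cuts through no exon. The whole gene had 4190, 3438, 3790 and 4467 normalized counts in Wt and 3855, 3921, 4034 and 4135 in Pkd2-/- (log2 fold change 0.01 ± 0.07 SE, adjusted p = 0.89). The groups overlap, and at the level of the gene the libraries labelled Pkd2-/- could not be told from Wt, so this total does not check the labels. The 6 exons hold 1176 bases, a multiple of 3, and the coding sequence up to the end of exon 3 also divides by 3 without remainder. If the remaining exons were spliced together, the reading frame would therefore run on from exon 3 into exon 10. The last 60 bases of exon 3 (chr5:104477043-104477176) and the first 60 of exon 10 (chr5:104494893-104494991) on the plus strand would then meet as follows, with exon 10 in capitals and the letters taken from the GENCODE transcript.
Pkd2 exon 3 joined to exon 10: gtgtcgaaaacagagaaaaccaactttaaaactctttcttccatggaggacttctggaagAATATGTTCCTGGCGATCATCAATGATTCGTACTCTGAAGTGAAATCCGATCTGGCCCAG

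Whether transcripts of the clone carry this junction was not tested here, since the counts are per gene. The study did look at single exons. It reports 0 counts for exons 4 to 9 in the clone, whose Pkd2 transcript was seen mainly at exon 15. It also reports loss of the Pkd2 protein by Western blot. Of the neighboring genes within 100 kb of the deletion, Spp1, which encodes the secreted phosphoprotein osteopontin, fell (4180, 3826, 3578 and 3880 normalized counts in Wt and 985, 1075, 1036 and 1011 in Pkd2-/-, log2 fold change -1.91 ± 0.06 SE, adjusted p = 1.3e-13). BC005561 had a log2 fold change of 0.66 ± 0.15 SE (adjusted p = 0.0011) and D930016D06Rik one of 0.46 ± 0.12 SE (adjusted p = 0.0041), both short of the threshold on size. Pkd1 had 682, 688, 883 and 876 normalized counts in Wt and 1057, 1216, 1071 and 1492 in Pkd2-/- (log2 fold change 0.62 ± 0.15 SE, adjusted p = 0.0019), and the groups do not overlap.

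A gene was called where limma's adjusted p was under 0.05 and its level differed by at least 1 on the log2 scale. Of the 13616 genes, 1137 were called (8.35%), 406 higher (2.98%) and 731 lower (5.37%), and 1039 of them code for proteins. On the log2 scale the median difference was -2.08 among the called genes that fell and 1.43 among those that rose. The 2 directions also differed in extent. In 33 called genes with a Wt mean of at least 100, every Pkd2-/- library was at or under 3 normalized counts, the limit that a count of 0 allows, whereas 0 genes with a mutant mean of at least 100 were at or under 3 in every Wt library. Adjusted p alone was under 0.05 for 54.3% of the genes, most of them with small differences, and for 47.5% of genes the 4 libraries of each group did not overlap.

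**Figure D1:**
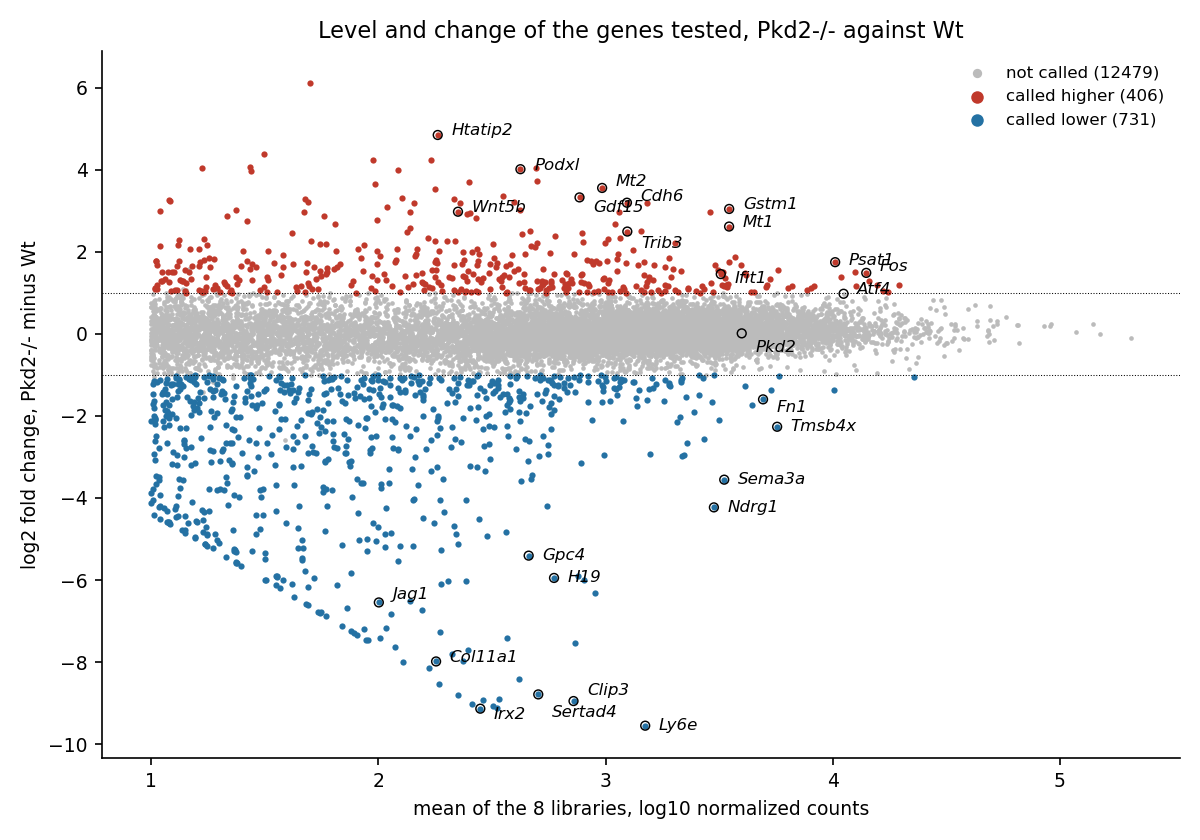
Each point is 1 of the 13616 genes tested, with its mean level over the 8 libraries (horizontal axis, log10 normalized counts) and its log2 fold change in Pkd2-/- against Wt cells (vertical axis). Called genes are in color, dotted lines mark a log2 fold change of 1 in either direction, and the genes that fell reach further from 0 than those that rose.

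The steepest falls were in genes that the clone had all but ceased to express. Ly6e, a membrane protein anchored by a lipid, had 2926, 2983, 3038 and 2997 normalized counts in Wt and 3, 0, 8 and 6 in Pkd2-/- (log2 fold change -9.55 ± 0.44 SE, adjusted p = 1.2e-11). The homeobox gene Irx2 had 557, 582, 576 and 532 in Wt and 0 in every Pkd2-/- library, at least 187-fold lower against a floor of 3 counts per library. The lysosomal protease gene Ctsc went from 640–709 to 0–1 (at least 222-fold lower), and Prrg1, a membrane protein with a carboxyglutamate domain, from 502–532 to 0 in all 4 (at least 172-fold lower), where a pair of numbers gives the lowest and the highest library of a group. In these genes no mutant library comes near a Wt library. The microtubule-binding proteins Map2 (506 to 639 in Wt and 0 to 1 in Pkd2-/-) and Clip3 (1336 to 1616 in Wt and 1 to 5 in Pkd2-/-) fell with them. The small heat shock gene Hspb8 (354 to 388 in Wt and 0 in Pkd2-/-) and the transcription cofactor gene Sertad4 (898 to 1125 in Wt and 0 to 2 in Pkd2-/-) also fell. So did the membrane skeleton gene Epb41l3 (800 to 870 in Wt and 0 to 5 in Pkd2-/-) and Pmepa1, an inhibitor of TGF-beta signals (323 to 350 in Wt and 0 to 1 in Pkd2-/-). In the Pkd1-/- clone the means were 2572 for Ly6e, 379.8 for Irx2, 735 for Ctsc and 786 for Map2, whereas Clip3 was low in both clones with a Pkd1-/- mean of 18.

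The steepest rise among genes with a mutant mean of at least 100 was in Htatip2 (17, 10, 5 and 18 normalized counts in Wt and 327, 369, 371 and 342 in Pkd2-/-, log2 fold change 4.85 ± 0.25 SE, adjusted p = 7.1e-11). The Pkd1-/- mean of Htatip2 was 400.5. Podxl, which encodes podocalyxin, a sialomucin of apical membranes, rose from 44–60 to 711–874 (log2 fold change 4.01). Its Pkd1-/- mean was 80. Podxl is also 1 of 8 podocyte markers, whose sum ran from 3142 to 3409 in Wt and from 2772 to 3070 in Pkd2-/- libraries, with Ptpro at 0 in all 8. Nr3c2, the mineralocorticoid receptor through which aldosterone acts on this segment, had 19, 14, 4 and 26 normalized counts in Wt and 241, 214, 190 and 265 in Pkd2-/- (log2 fold change 4.00 ± 0.48 SE, adjusted p = 2.5e-06), and its libraries lie apart although 1 Wt library held only 4 counts. Further rises were those of Parvb, a partner of integrin-linked kinase (5 to 14 in Wt and 174 to 192 in Pkd2-/-), and Misp, an actin-bundling protein of the cell cortex (42 to 71 in Wt and 839 to 1048 in Pkd2-/-). Dnm3, a dynamin of membrane fission (59 to 87 in Wt and 849 to 1050 in Pkd2-/-), Camk1d, a calmodulin-dependent kinase (30 to 41 in Wt and 431 to 525 in Pkd2-/-), and Nbl1, an antagonist of BMPs (53 to 76 in Wt and 588 to 732 in Pkd2-/-), rose as well.

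In the list for the unfolded protein and integrated stress response, every member called was higher. This program slows general translation when the endoplasmic reticulum is loaded or amino acids are short, while the transcription factor Atf4 is made and switches on its targets. Of 45 members tested, 11 were called higher (24.4%) and 0 lower, with a median log2 fold change of 0.38, beside -0.01 over all genes tested. Without the genes of chromosomes 2 and 19, which are shifted up as a whole in the clone, fewer members were tested and 7 were called higher. Trib3 and Chac1, described next, lie on chromosome 2 and drop out there. With each chromosome centred on its median, 11 members were called higher. Atf4 itself had 7292, 7436, 7458 and 7930 normalized counts in Wt and 14582, 14566, 14978 and 15146 in Pkd2-/- (log2 fold change 0.98 ± 0.04 SE, adjusted p = 3.1e-12), just under the threshold on size, and the groups lie far apart. Among its known targets, Trib3, a pseudokinase, had 351, 402, 399 and 351 normalized counts in Wt and 2196, 2227, 2038 and 2013 in Pkd2-/- (log2 fold change 2.49 ± 0.09 SE, adjusted p = 1.0e-12). Chac1, which degrades glutathione, had 308, 302, 283 and 229 normalized counts in Wt and 1340, 1396, 1391 and 1138 in Pkd2-/- (log2 fold change 2.23 ± 0.13 SE, adjusted p = 3.7e-10). In both genes the lowest mutant library lay far above the highest Wt library. Gdf15, a secreted stress hormone, rose from 107–164 to 1212–1648 (log2 fold change 3.33 ± 0.15 SE, adjusted p = 9.8e-12). Ddit3, the factor CHOP, went from 944–1032 to 2786–3086 (log2 fold change 1.58 ± 0.07 SE, adjusted p = 1.9e-11) and Cebpb, one of its partners, from 739–885 to 1894–2341. The chaperone Hspa5, a mark of load in the endoplasmic reticulum, had a log2 fold change of 0.70 ± 0.04 SE, short of the threshold. The Pkd1-/- means of Trib3 and Chac1 were 321 and 308.

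Genes of amino acid supply moved in the same cells. Of 51 members of the list for amino acid, one-carbon and nitrogen metabolism, 10 were called higher (19.6%) and 6 lower (11.8%), with a median of 0.28. Psat1, an enzyme of serine synthesis, had 4690, 4868, 4602 and 4669 normalized counts in Wt and 16407, 16466, 15519 and 14865 in Pkd2-/- (log2 fold change 1.75 ± 0.05 SE, adjusted p = 4.8e-14). Asns, asparagine synthetase, rose from 2084–2421 to 5556–6430 (log2 fold change 1.43) and Bcat1 of branched-chain amino acid use from 228–257 to 1243–1453 (2.45). Arg2, a mitochondrial arginase, rose from 58–84 to 310–346 (2.25), and the cystine carrier gene Slc7a11 from 86–111 to 294–382 (1.68). Glul, glutamine synthetase, went the other way, from 164–188 to 0 in all 4 mutant libraries and so was at least 58.8-fold lower. Its Pkd1-/- mean was 2.5. Cth, which makes cysteine (165 to 208 in Wt and 68 to 72 in Pkd2-/-), the creatine kinase gene Ckmt1 (174 to 198 in Wt and 33 to 55 in Pkd2-/-) and the creatine synthesis gene Gatm (187 to 246 in Wt and 89 to 102 in Pkd2-/-) fell too.

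To show the promoter letters of these groups, the windows of RefSeq from 250 bases before to 50 after each start site (GRCm38.p6) were searched on both strands for TGATGNAA, the core letters bound by Atf4 with its partners. A match stood in 1304 of 32851 windows (3.97%), in those of 5 of the 11 stress response members called higher (Asns, Atf3, Chac1, Trib3 and Vldlr) and in those of 2 of the 29 members that were not called and have a window. For the interferon list described next, the core of the interferon-stimulated response element was searched, GAAA followed by any 2 bases and GAAA. It matched 1131 windows (3.44%), those of 10 of the 15 called members with a window and of 20 of 47 not called. TGACTCA, bound by AP-1, matched 1709 windows (5.2%) and that of 1 of the 10 called immediate early genes with a window. A match is a description of letters and not a site of binding. The stretches printed here lie before the start of genes that rose and were chosen to show the letters. Capitals mark the match on either strand, and each is written in the direction of its gene.
Chac1 (chr2:119351024-119351081, plus strand): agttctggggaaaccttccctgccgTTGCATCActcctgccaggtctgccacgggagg
Atf3 (chr1:191183411-191183468, minus strand): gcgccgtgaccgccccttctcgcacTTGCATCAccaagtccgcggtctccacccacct
Ifit1 (chr19:34640760-34640838, plus strand): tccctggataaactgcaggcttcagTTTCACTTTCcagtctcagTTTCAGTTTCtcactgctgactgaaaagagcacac
Isg15 (chr4:156200850-156200921, minus strand): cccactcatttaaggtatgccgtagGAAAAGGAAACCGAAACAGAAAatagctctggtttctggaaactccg
Irgm2 (chr11:58214888-58214947, plus strand): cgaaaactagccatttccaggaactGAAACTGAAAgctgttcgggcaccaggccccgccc
Oas3 (chr5:120777700-120777759, minus strand): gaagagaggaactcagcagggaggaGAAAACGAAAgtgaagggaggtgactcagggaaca

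Most interferon-responsive genes that were called were higher in the clone. They encode sensors and effectors against viruses and are switched on by interferons. Of 82 members tested, 20 were called higher (24.4%) and 3 lower (3.66%), with a median of 0.43. Ifit1, which binds foreign RNA, had 1937, 1507, 1682 and 1761 normalized counts in Wt and 4608, 4889, 4830 and 4520 in Pkd2-/- (log2 fold change 1.46 ± 0.06 SE, adjusted p = 9.6e-12). Oasl2, of the family of oligoadenylate synthetases, had 313, 348, 436 and 470 normalized counts in Wt and 1364, 1292, 1451 and 1230 in Pkd2-/- (log2 fold change 1.78 ± 0.11 SE, adjusted p = 3.7e-10). The groups of both genes lie well apart. Irf8, a factor best known from blood cells, rose from 17–28 to 167–174 (log2 fold change 2.77 ± 0.16 SE, adjusted p = 2.8e-10), while Ptprc, the leukocyte antigen, was between 0 and 5 in all 8 libraries. The sum of 13 leukocyte markers ran from 1618 to 1818 in Wt and from 1306 to 1485 in Pkd2-/- libraries. Rtp4 (366 to 503 in Wt and 1144 to 1475 in Pkd2-/-) and the GTPase gene Mx2 (54 to 76 in Wt and 205 to 240 in Pkd2-/-) rose too. So did the ubiquitin-like modifier gene Isg15 (363 to 445 in Wt and 819 to 1050 in Pkd2-/-), Irf7 (284 to 390 in Wt and 600 to 750 in Pkd2-/-) and the chemokine gene Cxcl10 (372 to 462 in Wt and 805 to 977 in Pkd2-/-). Not every member moved in this direction. Ifit3, a close relative of Ifit1, had 6816, 6602, 6993 and 6953 normalized counts in Wt and 4640, 4761, 4542 and 4328 in Pkd2-/- (-0.58 on the log2 scale, adjusted p = 2.1e-08), and was singled out after its values were seen. Irf5 (53 to 96 in Wt and 19 to 26 in Pkd2-/-) and Cd74 (131 to 142 in Wt and 36 to 62 in Pkd2-/-) fell, as did the third called member, Zbp1. In the Pkd1-/- clone the means were 931 for Ifit1, 250.0 for Oasl2, 154 for Rtp4 and 234 for Isg15. The median log2 fold change in Pkd1-/- against Wt was -0.45 over the 82 members. Between the clones the log2 difference of Ifit1, Pkd2-/- minus Pkd1-/-, was 2.34 ± 0.06 SE, adjusted p = 1.2e-14. Genes of the Ifit, Oas and Gbp families have near copies, and how shared reads were counted can move their values.

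Immediate early genes, which cells transcribe within minutes of a stimulus, were higher as well. Of 29 members tested, 12 were called higher (41.4%) and 0 lower, with a median of 0.74. Fos had 4362, 7146, 7978 and 9992 normalized counts in Wt and 14151, 18581, 18074 and 32232 in Pkd2-/- (log2 fold change 1.49 ± 0.24 SE, adjusted p = 6.5e-05). Fosb had 128, 345, 293 and 631 normalized counts in Wt and 940, 1656, 1019 and 3198 in Pkd2-/- (log2 fold change 2.32 ± 0.43 SE, adjusted p = 2.2e-04). Their groups do not overlap, but within each group the libraries spread widely, and Pkd2-/- replicate 4 was the highest of all in both. The same library stood apart in Egr2 (285, 429, 399 and 629 normalized counts in Wt and 1050, 1308, 1346 and 3608 in Pkd2-/-), in Atf3 (3229–7950 across the clone), in Nr4a1 (1256 to 2556 in Wt and 2481 to 9927 in Pkd2-/-) and, among targets of ERK signals, in Dusp5 (202 to 606 in Wt and 1139 to 3744 in Pkd2-/-) and Dusp6 (502 to 919 in Wt and 1111 to 2034 in Pkd2-/-). In all 7 of these genes, replicate 4 was the highest and replicate 1 the lowest library in Wt, in Pkd2-/- and in Pkd1-/- cells alike. Without Pkd2-/- replicate 4, 9 members were called higher, and without Wt replicate 1 also 9. The Wt and mutant ranges of Nr4a1 overlap. More even among replicates were Dusp2, a phosphatase of MAP kinases (80 to 132 in Wt and 302 to 420 in Pkd2-/-), the AP-1 subunit gene Fosl1 (105 to 119 in Wt and 252 to 349 in Pkd2-/-) and Ier2 (6634 to 9617 in Wt and 18080 to 22752 in Pkd2-/-). Egr1 had a log2 fold change of 0.83 ± 0.15 SE and Jun one of 0.64 ± 0.17 SE, both short of the threshold.

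**Figure D2:**
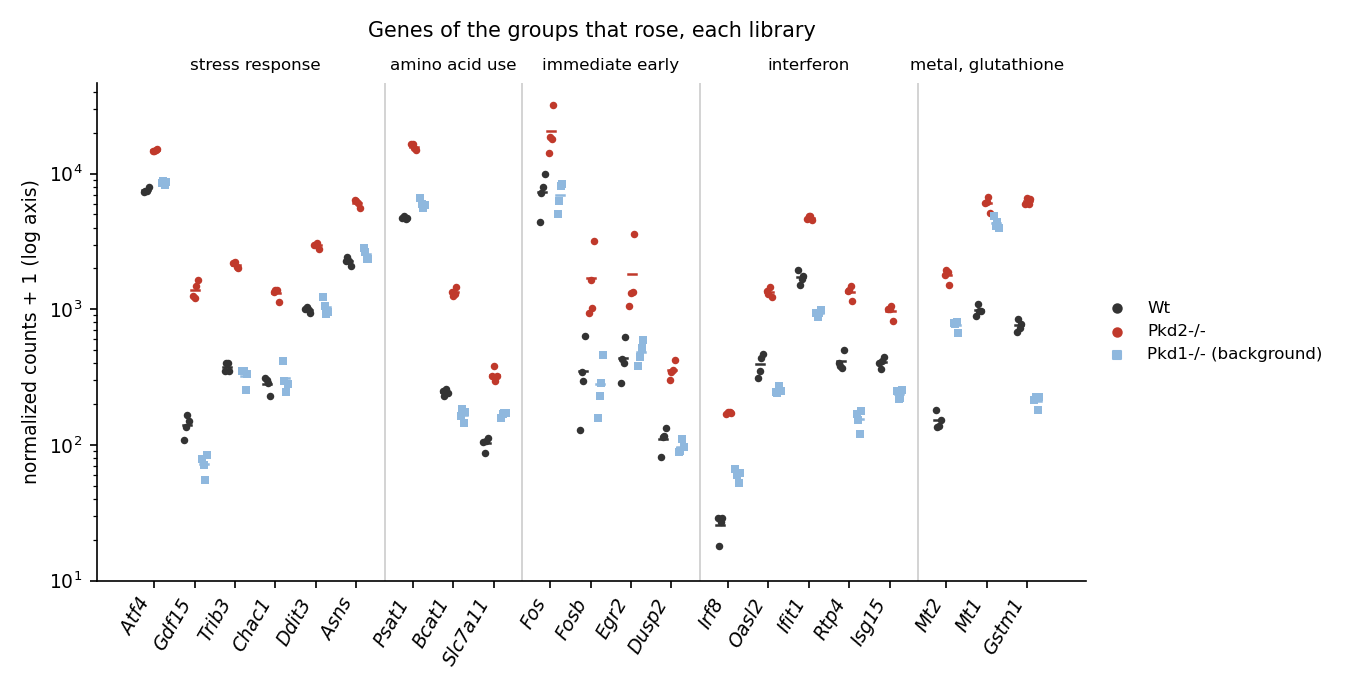
Normalized counts plus 1 on a log axis for genes of the groups that rose, with 1 point for each of the 4 libraries of a genotype and a short line at the mean. In each gene shown the 4 Pkd2-/- libraries lie above the 4 Wt libraries, and 1 Pkd2-/- library stands apart in Fos, Fosb and Egr2.

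Genes that bind metals and conjugate glutathione gave some of the largest rises, but the list they belong to moved both ways. Of 50 antioxidant and glutathione members, 8 were called higher and 8 lower (16% each), with a median of 0.02. The metallothionein gene Mt2 had 179, 134, 138 and 152 normalized counts in Wt and 1793, 1942, 1890 and 1500 in Pkd2-/- (log2 fold change 3.56 ± 0.10 SE, adjusted p = 2.3e-14). Its neighbor Mt1 had 896, 1085, 974 and 963 normalized counts in Wt and 6119, 6148, 6691 and 5126 in Pkd2-/- (log2 fold change 2.62 ± 0.08 SE, adjusted p = 7.5e-14). All mutant libraries of both lie far above Wt, and in the Pkd1-/- clone the means were 759 and 4329. Gstm1, a glutathione transferase, had 678, 854, 722 and 780 normalized counts in Wt and 6007, 6583, 5921 and 6478 in Pkd2-/- (log2 fold change 3.04 ± 0.08 SE, adjusted p = 9.4e-15). Its relative Gstm2 went from 466–537 to 2081–2159. The Pkd1-/- mean of Gstm1 was 211, so that the log2 difference between the clones was 4.89 ± 0.08 SE, adjusted p = 1.9e-17. Gstm1, Gstm2 and the pseudogene Gstm2-ps1 (20 to 54 in Wt and 367 to 430 in Pkd2-/-) are similar in sequence, and reads may be split between them. Lower were the exporter gene Abcc3 (431 to 538 in Wt and 4 to 8 in Pkd2-/-), the transferase genes Gsta4 (148 to 168 in Wt and 44 to 83 in Pkd2-/-) and Gstt3 (359 to 448 in Wt and 134 to 191 in Pkd2-/-) and the peroxidase gene Gpx8 (698 to 876 in Wt and 234 to 289 in Pkd2-/-). Hmox1, heme oxygenase, had a log2 fold change of -0.39 ± 0.06 SE. Of 36 genes of xenobiotic and aldehyde metabolism, 2 were called higher and 11 lower (30.6%). Among the latter were Cyp2j6 (203 to 265 in Wt and 3 to 6 in Pkd2-/-), the retinol carrier gene Rbp4 (65 to 95 in Wt and 1 to 8 in Pkd2-/-), Akr1c14 (105 to 138 in Wt and 12 to 26 in Pkd2-/-) and Cyp39a1 (2248 to 2430 in Wt and 854 to 987 in Pkd2-/-). Abcc3, Cyp2j6 and Akr1c14 were also low in the Pkd1-/- clone, with means of 9.75, 14.5 and 10.25, whereas that of Cyp39a1 was 2138. In metal transport, the iron exporter gene Slc40a1 fell from 3668–4205 to 575–654 (log2 fold change -2.66 ± 0.06 SE, adjusted p = 1.3e-15). The zinc and iron importer gene Slc39a8 rose from 148–163 to 485–554.

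Most called genes for the matrix around the cell and the enzymes that build it were lower in the clone. Of 31 basement membrane and matrix glycoprotein genes, 11 were called lower (35.5%) and 1 higher, with a median of -0.33. At a minimum mean of 50 in place of 10, 6 were called lower. Of 22 collagen genes 6 were called lower (27.3%) and 1 higher, with a median of -0.52. Fn1, fibronectin, had 6709, 6977, 7797 and 8150 normalized counts in Wt and 2552, 2648, 1881 and 2794 in Pkd2-/- (log2 fold change -1.60 ± 0.11 SE, adjusted p = 1.6e-09). Fras1, which anchors epithelia to their basement membrane, had 3007, 3167, 3594 and 3867 normalized counts in Wt and 881, 795, 687 and 1019 in Pkd2-/- (log2 fold change -2.02 ± 0.11 SE, adjusted p = 2.0e-10). No mutant library of either reached the lowest Wt library. The microfibril proteins Ltbp2 (43 to 69 in Wt and 0 to 10 in Pkd2-/-) and Ltbp4 (474 to 530 in Wt and 77 to 147 in Pkd2-/-) and the elastic fiber gene Fbln5 (62 to 81 in Wt and 0 to 1 in Pkd2-/-) fell, and Frem2, a partner of Fras1, rose from 20–25 to 45–96. Col11a1 had 346, 343, 409 and 335 normalized counts in Wt and 1, 0, 0 and 1 in Pkd2-/- (at least 119-fold lower), against a Pkd1-/- mean of 7370.5. Col8a2 (159 to 183 in Wt and 3 to 6 in Pkd2-/-), Col4a1 (38 to 69 in Wt and 2 to 4 in Pkd2-/-) and the collagen prolyl hydroxylase gene P4ha3 (136 to 161 in Wt and 1 to 5 in Pkd2-/-) fell. Pcolce, an enhancer of procollagen processing, rose from 142–175 to 310–364. Of 22 metalloproteases and inhibitors, 7 were called lower (31.8%) and 2 higher. Mmp2 (58 to 78 in Wt and 5 to 13 in Pkd2-/-) and its inhibitor Reck (186 to 212 in Wt and 31 to 35 in Pkd2-/-) fell, while Adamts1, a protease of proteoglycans, had 6128, 6201, 6502 and 6957 normalized counts in Wt and 15894, 17895, 16872 and 24137 in Pkd2-/- (log2 fold change 1.52 ± 0.10 SE, adjusted p = 7.3e-10). Plaur, the urokinase receptor, rose from 334–406 to 789–1008.

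Genes for heparan sulfate, the sugar chain on which many growth factors dock, fell where they were called. Of 34 genes for its core proteins and enzymes, 10 were called lower (29.4%) and 0 higher, although the median was only -0.16. The glypican gene Gpc4 had 870, 933, 833 and 949 normalized counts in Wt and 16, 14, 27 and 27 in Pkd2-/- (log2 fold change -5.41 ± 0.16 SE, adjusted p = 5.8e-14). Gpc6 went from 122–169 to 0 in all 4 mutant libraries, at least 50.7-fold lower. Sdc2, a syndecan, fell from 5666–6210 to 2350–2473. The sulfotransferase gene Hs6st2 had 452, 447, 452 and 442 in Wt and 0 in all mutant libraries, and it was also 0 in the Pkd1-/- clone. The Pkd1-/- means of Gpc4 and Gpc6 were 795 and 194. Hs3st6, another sulfotransferase (83 to 102 in Wt and 7 to 15 in Pkd2-/-), fell too.

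Adhesion genes did not move as 1 block. Of 25 cadherin, catenin and desmosome genes, 4 were called higher (16%) and 0 lower. Cdh6, a cadherin of the embryonic kidney tubule, had 227, 218, 271 and 259 normalized counts in Wt and 2148, 2170, 2092 and 2554 in Pkd2-/- (log2 fold change 3.20 ± 0.10 SE, adjusted p = 7.6e-14). Cdh2, N-cadherin, rose from 95–135 to 396–482 and Dsp, desmoplakin, from 2848–3288 to 6936–8573. The Pkd1-/- means were 95 for Cdh6 and 674 for Dsp. Cdh1, E-cadherin, had a log2 fold change of 0.18 ± 0.04 SE. At the tight junction Cldn1 fell from 517–592 to 55–80 and Cldn8, a claudin of the collecting duct, from 98–129 to 4–20. Cldn3 rose from 421–522 to 1089–1162. Of 34 integrin and focal adhesion genes, 6 were called lower (17.6%) and 2 higher. The fibronectin receptor chain Itga5 (608 to 694 in Wt and 146 to 197 in Pkd2-/-), Itgb6, which activates TGF-beta (2126 to 2432 in Wt and 637 to 883 in Pkd2-/-), the kindlin Fermt1 (390 to 455 in Wt and 8 to 29 in Pkd2-/-) and the tensin Tns1 (230 to 286 in Wt and 20 to 50 in Pkd2-/-) fell. The collagen receptor chain Itga1 rose (385 to 463 in Wt and 869 to 1163 in Pkd2-/-).

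Actin and contractility genes were mostly lower where they were called. Of 83 members, 14 were called lower (16.9%) and 1 higher, with a median of -0.21. Tmsb4x, thymosin beta-4, which holds actin monomers, had 9889, 10461, 9298 and 8104 normalized counts in Wt and 2047, 1975, 2040 and 1771 in Pkd2-/- (log2 fold change -2.26 ± 0.07 SE, adjusted p = 1.2e-13). Pfn2, a profilin, had 7031, 6712, 6586 and 7003 normalized counts in Wt and 1940, 2088, 2097 and 2022 in Pkd2-/- (log2 fold change -1.75 ± 0.05 SE, adjusted p = 1.5e-14). Both groups are tight and far apart. Evl, which lengthens actin filaments, went from 631–736 to 0–1 (at least 227-fold lower), and Palld, of stress fibers, from 594–617 to 106–165. Myosin light chain Myl9 (100 to 112 in Wt and 1 to 13 in Pkd2-/-) and its kinase Mylk (882 to 1129 in Wt and 312 to 422 in Pkd2-/-) fell. Smooth muscle actin Acta2 (109 to 143 in Wt and 19 to 23 in Pkd2-/-) and Tagln (88 to 121 in Wt and 22 to 43 in Pkd2-/-) fell as well. Acta2 and the matrix gene Postn (24 to 81 in Wt and 0 to 22 in Pkd2-/-) are among 14 markers of fibroblasts and smooth muscle whose sum ran from 189 to 258 in Wt and from 49 to 190 in Pkd2-/- libraries. Of those markers 3 passed the filter, and Thy1 was at 0 throughout. Their part in these results was not tested. Krt19, a keratin of ducts, fell from 4030–4850 to 1392–1456. Evl was likewise near 0 in the Pkd1-/- clone (mean 1.5).

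In the Wnt, Notch and TGF-beta lists more members were called lower than higher. The same holds for 32 of the 59 pathway lists and for all genes tested, with 5.37% lower and 2.98% higher. Of 42 Wnt genes, 9 were called lower (21.4%) and 1 higher, with a median of 0.04, beside -0.01 over all genes. The receptor gene Fzd1 had 730, 796, 750 and 873 normalized counts in Wt and 131, 146, 111 and 128 in Pkd2-/- (log2 fold change -2.60 ± 0.08 SE, adjusted p = 1.4e-13). Lgr6, which boosts Wnt signals, had 1994, 1978, 2086 and 2126 normalized counts in Wt and 692, 720, 652 and 688 in Pkd2-/- (log2 fold change -1.57 ± 0.05 SE, adjusted p = 2.7e-13). The repressor gene Tcf7l1 went from 948–1056 to 111–147 and the secreted antagonist Sfrp2 from 350–402 to 13–25. Sostdc1, an antagonist of both Wnts and BMPs, fell from 131–153 to 0–1. The ligand genes parted, with Wnt10a falling from 77–101 to 0–3 and Wnt5b, a ligand of the branch without beta-catenin, rising from 40–54 to 333–452 (log2 fold change 2.98 ± 0.20 SE, adjusted p = 1.7e-09). In the Notch list 3 of 25 members were called lower (12%) and 0 higher, with a median of -0.06. The ligand Jag1 had 214, 152, 193 and 238 normalized counts in Wt and 4, 1, 0 and 1 in Pkd2-/- (log2 fold change -6.55 ± 0.34 SE, adjusted p = 5.8e-11). The receptor Notch3 went from 271–316 to 47–100.

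**Figure D3:**
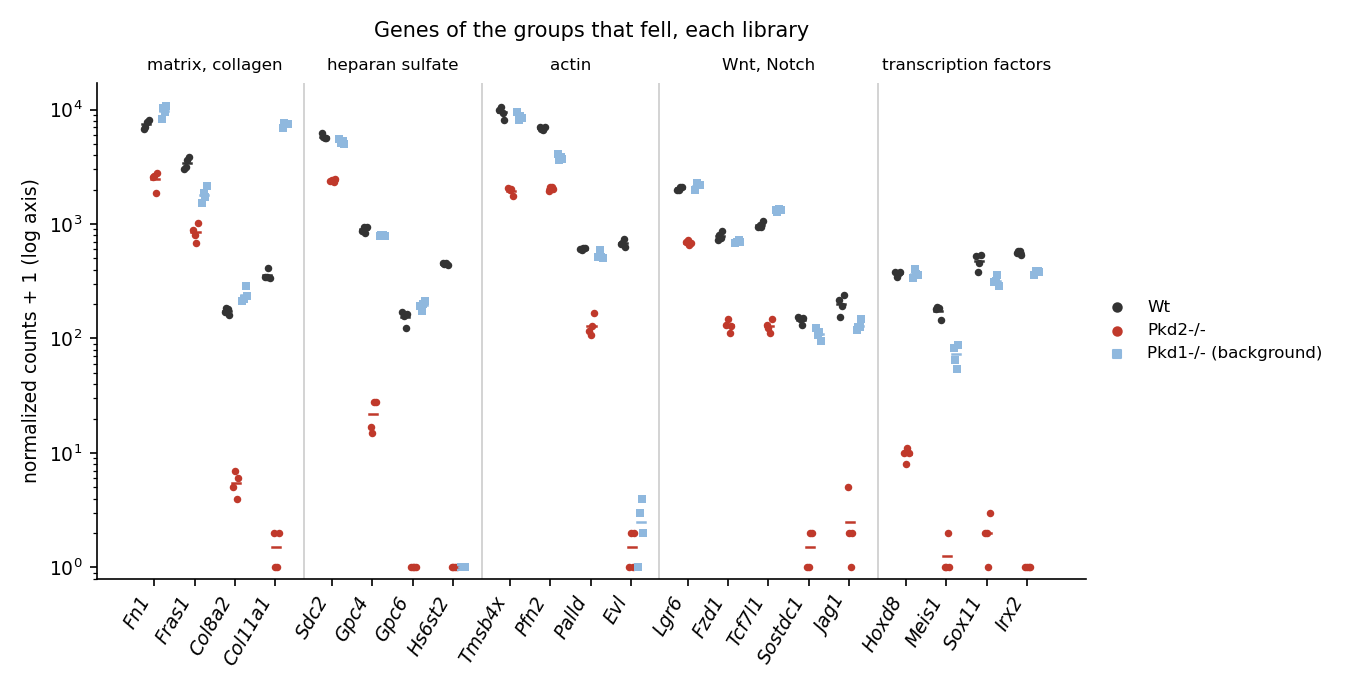
Normalized counts plus 1 on a log axis for genes of the groups that fell, with 1 point for each of the 4 libraries of a genotype and a short line at the mean. The Pkd2-/- libraries lie below the Wt libraries in every gene shown, and those of Irx2, Gpc6 and Hs6st2 all stand at 0 counts.

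Of 44 TGF-beta and BMP genes, 8 were called lower (18.2%) and 4 higher (9.09%), with a median of 0.02. The ligand Tgfb2 had 211, 217, 220 and 211 normalized counts in Wt and 20, 37, 24 and 40 in Pkd2-/- (log2 fold change -2.84 ± 0.20 SE, adjusted p = 2.5e-09). Bmp3 went from 83–96 to 1–4 and the secreted glycoprotein gene Fstl1 from 179–202 to 3–10. Higher was the coreceptor betaglycan, Tgfbr3 (700, 724, 684 and 743 normalized counts in Wt and 2972, 3653, 2903 and 3768 in Pkd2-/-, log2 fold change 2.21 ± 0.09 SE, adjusted p = 3.2e-12). Its mutant libraries all exceed every Wt library. Of 45 genes for other receptor tyrosine kinases, ephrins and their ligands, 10 were called lower (22.2%) and 3 higher. Angpt1, a ligand of Tie receptors, fell from 718–862 to 45–94, with a Pkd1-/- mean of 3492. Igfbp2, which binds insulin-like growth factors (104 to 160 in Wt and 0 to 2 in Pkd2-/-), the ligand gene Pdgfd (293 to 349 in Wt and 27 to 47 in Pkd2-/-) and Fgfbp1, which releases FGFs from the matrix (706 to 910 in Wt and 81 to 107 in Pkd2-/-), fell. Fgf18 (48 to 69 in Wt and 217 to 263 in Pkd2-/-) and Igfbp7 (569 to 705 in Wt and 1977 to 2316 in Pkd2-/-) rose. The list of the EGF receptor family, its ligands and linked genes went the other way, with 3 of 20 members called higher (15%), 1 lower (5%) and a median of 0.44. Among those called higher are Dusp5 and Dusp6, the targets of ERK signals described above, which are neither receptors nor ligands. Without Pkd2-/- replicate 4 the log2 fold change of Dusp6 was 0.82. Sema3a, a secreted guidance cue that also shapes the ureteric tree, had 6158, 5743, 5773 and 6880 normalized counts in Wt and 471, 550, 453 and 625 in Pkd2-/- (log2 fold change -3.55 ± 0.09 SE, adjusted p = 3.6e-15).

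Transcription factors of body position and kidney development were among the genes that fell. Of 24 Hox genes, 6 were called lower (25%) and 0 higher. Hoxd8 had 382, 341, 376 and 379 normalized counts in Wt and 9, 7, 10 and 9 in Pkd2-/- (log2 fold change -5.26 ± 0.12 SE, adjusted p = 1.9e-15). Hoxd9 went from 63–84 to 0–1, and the Pkd1-/- means were 366 and 143. Of 40 factors of the nephric and collecting duct, 8 were called lower (20%) and 3 higher (7.5%). Beside Irx2, described above, the homeobox gene Meis1 (143 to 186 in Wt and 0 to 1 in Pkd2-/-), Sox11 (378 to 534 in Wt and 0 to 2 in Pkd2-/-) and Dlx5 (66 to 109 in Wt and 0 in Pkd2-/-) fell. Irx3 (984 to 1114 in Wt and 2010 to 2326 in Pkd2-/-) and Meis3 (23 to 41 in Wt and 102 to 107 in Pkd2-/-) rose. Gata3 had a log2 fold change of 0.64 ± 0.14 SE and Pax2 of 0.64 ± 0.06 SE, both short of the threshold. Of 33 imprinted genes, 6 were called lower (18.2%) and 1 higher. The long noncoding RNA H19 had 1054, 1238, 1040 and 1326 normalized counts in Wt and 26, 6, 15 and 40 in Pkd2-/- (log2 fold change -5.95 ± 0.35 SE, adjusted p = 3.3e-10). Peg10, a gene derived from a retrotransposon, went from 3079–4702 to 358–609, and the zinc finger gene Plagl1 from 4355–6225 to 1060–1306. Of 11 genes in the Bex and Tceal family of the X chromosome, 6 were called lower (54.5%) and 0 higher, with a median of -1.15. Examples are Bex4 (128 to 167 in Wt and 18 to 37 in Pkd2-/-) and Bex1 (2204 to 2389 in Wt and 927 to 1044 in Pkd2-/-).

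Of 36 genes for collecting duct water and sodium transport, 19 passed the filter. Of these 19, 1 was called higher, Nr3c2 as above, and 1 lower. The latter was Scnn1g, the gamma subunit of the epithelial sodium channel, with 951, 988, 876 and 896 normalized counts in Wt and 243, 257, 254 and 265 in Pkd2-/- (log2 fold change -1.86 ± 0.09 SE, adjusted p = 3.9e-11). Its Pkd1-/- mean of 303 was nearer to the Pkd2-/- level. The alpha subunit, Scnn1a, had 68 to 80 in Wt and 112 to 131 in Pkd2-/- (log2 fold change 0.66 ± 0.13 SE). Of 27 genes tested for chloride and bicarbonate secretion, 3 were called higher (11.1%) and 2 lower (7.41%). The calcium-activated chloride channel gene Ano1 rose from 8–23 to 80–126. Slc4a11, of the bicarbonate carrier family, rose from 113–151 to 725–861 (log2 fold change 2.51 ± 0.10 SE, adjusted p = 4.0e-12). Cftr, the chloride channel opened by cyclic AMP, went from 23–46 to 0–1 (at least 11.2-fold lower). Mal, which sorts proteins to the apical membrane, rose from 11233–12028 to 23113–24097. Chka, which makes precursors of osmolytes, rose from 1924–2046 to 4408–4791. Nfat5, the master factor of osmotic defense, had a log2 fold change of 0.62 ± 0.15 SE.

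Second messenger genes changed on both sides. Of 35 cyclic AMP members, 7 were called higher (20%) and 3 lower (8.57%). Pde4a, a phosphodiesterase that degrades cyclic AMP, had 34, 51, 38 and 35 normalized counts in Wt and 238, 222, 218 and 271 in Pkd2-/- (log2 fold change 2.57 ± 0.14 SE, adjusted p = 1.6e-10). Its relative Pde4c (50 to 62 in Wt and 101 to 160 in Pkd2-/-) and the cyclase gene Adcy9 (85 to 100 in Wt and 190 to 259 in Pkd2-/-) rose with it, as did the nucleotide receptor gene P2ry2 (268 to 298 in Wt and 615 to 779 in Pkd2-/-). Of 59 calcium and phospholipase C members, 5 were called in each direction (8.47%). Of the 5 called higher, 3 lie on chromosome 2, whose genes are shifted up as a whole in the clone. Itpr2, a calcium release channel of the endoplasmic reticulum, had 144, 141, 171 and 181 normalized counts in Wt and 499, 462, 420 and 615 in Pkd2-/- (log2 fold change 1.64 ± 0.15 SE, adjusted p = 9.8e-08). The mechanically gated channel gene Piezo2 fell from 647–732 to 12–39, with a Pkd1-/- mean of 1866. The phospholipase genes parted, as Plcb1 fell from 360–464 to 9–20 and Plcb4 rose from 160–249 to 472–616. Of 21 genes of the polycystins and of cystic disease, 1 was called, the fibrocystin gene Pkhd1 of recessive polycystic disease, which had 552, 499, 650 and 682 normalized counts in Wt and 1380, 1436, 1303 and 1756 in Pkd2-/- (log2 fold change 1.30 ± 0.12 SE, adjusted p = 7.3e-08). Its Pkd1-/- mean was 232.

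Among genes of energy metabolism, calls went both ways and single changes were large. Of 45 genes of glycolysis and the hypoxia response, 4 were called higher (8.89%) and 5 lower (11.1%), with a median of -0.30. At an adjusted p under 0.05 without a fold change threshold, 9 were higher and 27 lower, beside 26.5% and 27.8% of all genes tested. Ndrg1, a gene induced by hypoxia and differentiation, had 5903, 5915, 5675 and 5295 normalized counts in Wt and 345, 282, 313 and 275 in Pkd2-/- (log2 fold change -4.23 ± 0.07 SE, adjusted p = 1.5e-17). Ldhb, the lactate dehydrogenase of oxidative tissues, had 1679, 1916, 1821 and 1538 normalized counts in Wt and 218, 229, 228 and 213 in Pkd2-/- (log2 fold change -2.96 ± 0.08 SE, adjusted p = 7.7e-15). The groups of both are far apart, and in the Pkd1-/- clone the means were 7324 and 672. Egln3, an oxygen sensor (184 to 231 in Wt and 20 to 49 in Pkd2-/-), and the mitophagy gene Bnip3 (3116 to 3772 in Wt and 1602 to 1819 in Pkd2-/-) fell. The lactate carriers Slc16a3 (69 to 124 in Wt and 733 to 756 in Pkd2-/-) and Slc16a1 (4921 to 5147 in Wt and 10534 to 11630 in Pkd2-/-) rose. Slc2a1, the glucose carrier, had a log2 fold change of -0.35 ± 0.05 SE. Rragd, a GTPase that signals amino acids to mTOR, rose from 52–69 to 415–485, and the fatty acid activating enzyme gene Acsl1 from 554–598 to 1832–1980.

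In 7 of the 59 pathway lists, 0 members were called by limma. These were the 52 cilium genes, 50 genes of DNA replication, 59 of mitosis, 76 nuclear genes of the respiratory chain, 13 genes of the mitochondrial genome, 82 ribosomal proteins and 4 Y-chromosome genes. At an adjusted p under 0.05 without a fold change threshold, 26.5% of all genes tested were higher and 27.8% lower. At that cutoff 8 of 52 cilium genes were higher and 26 lower, and 24 of 59 mitosis genes were higher and 11 lower. Of 50 DNA replication genes, 7 were higher and 18 lower. Among 76 nuclear genes of the respiratory chain, 10 were higher and 34 lower, with a median log2 fold change of -0.16. Among 82 ribosomal protein genes, 18 were higher and 3 lower. Of the 59 mitosis genes, 12 lie on chromosome 2, whose genes are shifted up as a whole in the clone. Of the 13 mitochondrial genome genes 0 passed in either direction. Mki67, a mark of dividing cells, had a log2 fold change of 0.69 ± 0.11 SE. That is at the upper end of the DNA replication list, whose median was -0.07. The cilium genes ran between log2 fold changes of -0.52 and 0.98, and those of DNA replication between -0.56 and 0.69.

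**Figure D4:**
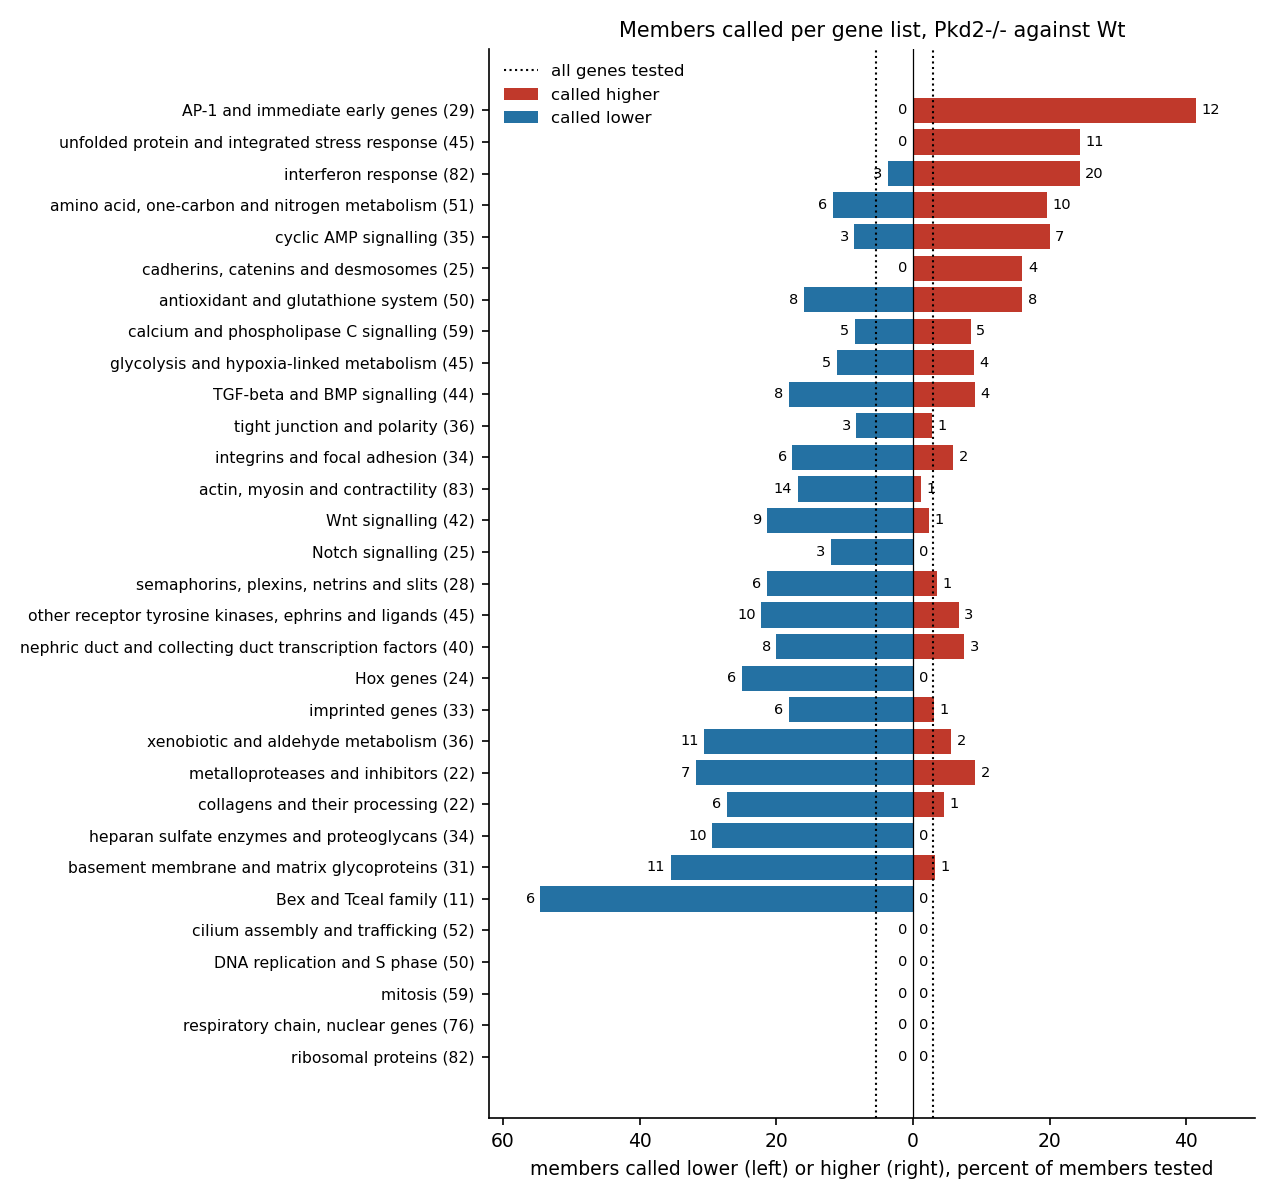
Percent of the tested members of 31 gene lists called higher (red, to the right) or lower (blue, to the left) in Pkd2-/- against Wt cells, with the number called beside each bar and the number tested in brackets. Dotted lines mark 2.98% higher and 5.37% lower over all genes tested, which the immediate early, stress response and interferon lists exceed to the right and the matrix and heparan sulfate lists to the left.

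The changes were not spread evenly over the genome. The median log2 fold change was 0.34 over the 1054 tested genes of chromosome 2 and 0.28 over the 475 of chromosome 19, and lay between -0.08 and 0.05 on each of the 18 others compared. On chromosome 2, 78.6% of genes had a positive log2 fold change, and the medians of its 21 successive blocks of 50 genes ran from 0.17 to 0.46, so every block was shifted. On chromosome 19 the 9 blocks ran from 0.17 to 0.33. With each library centred on its own median, the chromosome 2 median was 0.34 to 0.35 above the Wt mean in the Pkd2-/- libraries, from -0.00 to 0.01 in the Wt libraries and 0.03 to 0.05 in the Pkd1-/- libraries. For chromosome 19 these values were 0.23 to 0.32, -0.02 to 0.01 and 0.15 to 0.18. Of the stress response members called higher, Trib3, Chac1 and Cebpb are on chromosome 2 and Vldlr on chromosome 19, and of the interferon members called higher, Ifih1 is on chromosome 2 and Ifit1 on chromosome 19. Without the genes of both chromosomes, 18 interferon members were called higher in place of 20. With each chromosome centred on its median, 19 were. Copy number of these chromosomes was not tested.

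**Figure D5:**
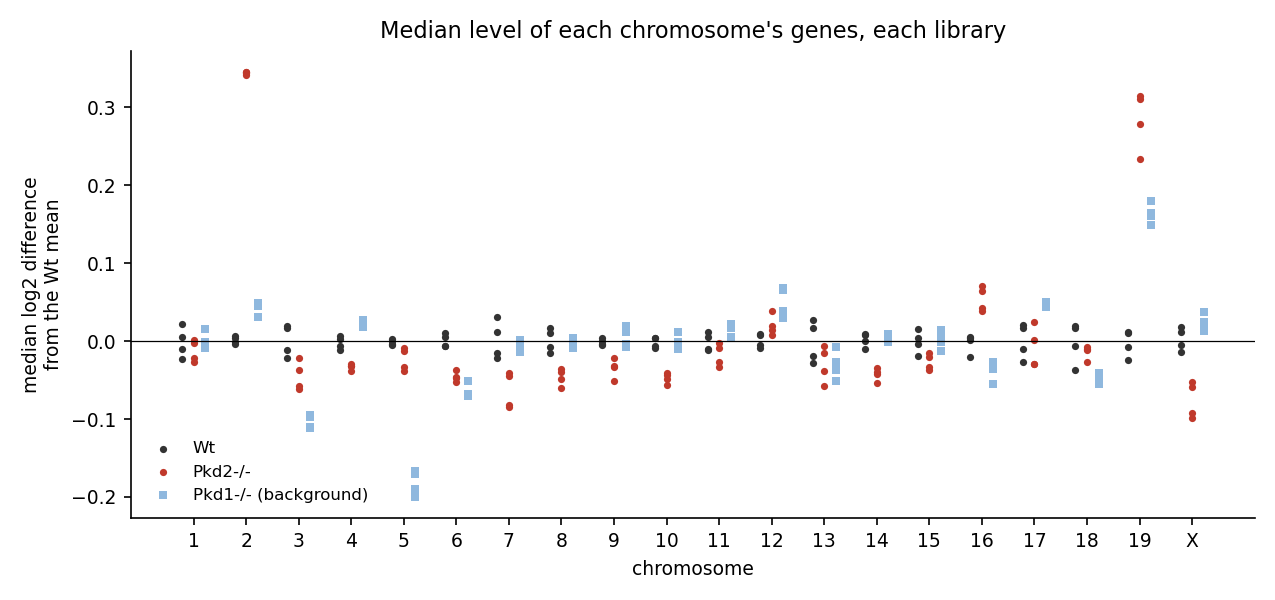
Median log2 difference of each chromosome's tested genes from the Wt mean (vertical axis), with 1 point for each library and each library centred on its own median over all genes. The 4 Pkd2-/- points stand at 0.34 to 0.35 on chromosome 2 and at 0.23 to 0.32 on chromosome 19, and close to 0 elsewhere.

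Compared directly with the Pkd1-/- clone, 1344 genes (9.87%) were called in the Pkd2-/- clone, 617 higher (4.53%) and 727 lower (5.34%). The comparison uses the same Pkd2-/- libraries as that with Wt. Of the 406 genes called higher against Wt, 269 (66.3%) were also called higher than in Pkd1-/- cells. Of the 731 called lower, 504 (68.9%) were also called lower than in Pkd1-/- cells. Among those not called between the clones are Col4a1, Fstl1, Casp12, Ctsf and Cftr, with Pkd1-/- means of 1.75, 8.75, 11.75, 0.25 and 1.5. Cdh2, with a Pkd1-/- mean of 323, was not called between them either. For Gdf15 the log2 difference between the clones was 4.28 ± 0.15 SE, adjusted p = 2.4e-13, for Cdh6 4.55 ± 0.10 SE, adjusted p = 6.1e-16 and for Ndrg1 -4.59 ± 0.07 SE, adjusted p = 3.5e-18. For Spp1 it was 0.01 ± 0.06 SE, adjusted p = 0.86, and for Krt19 0.09 ± 0.06 SE, adjusted p = 0.2, so neither gene was called between the clones.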

How the data were processed

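Per the labels and the methods of the study, cells were harvested with trypsin, RNA from 4 of 6 dishes per genotype was chosen by its absorbance ratios and sequenced with standard Illumina libraries. The authors trimmed reads with Trim Galore, checked them with FastQC, aligned them to mm10 with HISAT2, counted them per gene with htseq-count and normalized the counts with DESeq2. The submitters' processing notes also list mm9 and StringTie. The deposited values are normalized counts rounded to whole numbers, treated here as a score and not as raw counts, so the count test planned for raw counts could not be used. All 12 columns matched a sample, and 0 columns were left unused. Gene symbols came from GENCODE vM21.

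Values were analysed as log2(value + 1) with limma 3.58.1 in R 4.3.3 in 1 model of all 12 libraries, with a mean-variance trend and Benjamini-Hochberg adjustment over the 13616 genes whose mean reached 10. Fold changes of low genes are understated on this scale. A gene was called where its adjusted p was under 0.05 and its level differed by 1 or more on the log2 scale. With 4 libraries against 4, an exact permutation test of 1 gene cannot go below p = 0.0286. The procedure was tested on simulated data for this comparison (13674 genes), where 95 of 96 genes with a log2 change of 1.5 in size, 94 of 94 with 3 and 1 of 13484 unchanged genes were called. The simulation gave all genes 1 common spread between libraries and changed 100 genes at each size. In the real data genes differ in spread and many more change, so these are not error rates of the real comparison. Tables and plots were made with Python 3.11.15, pandas 2.3.3 and matplotlib 3.10.9.

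The genes and lists were chosen with earlier results of these data known. Named genes are Pkd2 and Pkd1, the 15 that rose and the 15 that fell most among called genes with no overlap and a mean of at least 100 in the higher group, up to 4 in each direction per list with a mean of at least 50, fixed anchor genes of each list, and neighbors of the deletion. Chosen after their values were seen, or named for a motif, a family or a role, were Cebpb, Fosl1, Fras1, Fzd1, Gstm2, Ier2, Ifih1, Ifit3, Irgm2, Isg15, Lgr6, Nr4a1, Oas3, Palld, Pfn2, Sdc2, Tfcp2l1, Vldlr and Zbp1. Alternatives were other pseudocounts and filters, upper quartile rescaling, a GC and length correction, a replicate block, a fit of both genotypes alone, no trend, leaving out each library, and, added after seeing the data, centring each chromosome and leaving out chromosomes 2 and 19.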

Additional observations from a re-analysis of the deposited data

Results flagged for a closer look

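Among the genes named here, 22 of 364 groups of 4 libraries (6.04%) held 1 library whose gap to the rest was too large for Dixon's test at the 95% level, a share that chance alone brings to about 1 in 20. In 5 of these groups the library was Pkd2-/- replicate 4 in an immediate early gene or a target of ERK signals. It had 7950 normalized counts of Atf3 against 3229 to 3829 in the other three, 3608 of Egr2 against 1050 to 1346, 9927 of Nr4a1 against 2481 to 3673, 3744 of Dusp5 against 1139 to 1470 and 2034 of Dusp6 against 1111 to 1202. Replicate 4 was also the highest of the Wt and of the Pkd1-/- libraries in these 5 genes.

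The same library was the highest of its group in Cdh6 (2554 against 2092 to 2170) and Chka (4791 against 4408 to 4429). Other Pkd2-/- libraries stood apart by little, with Krt19 at 1456 and Meis3 at 107 in replicate 2 and Tubb3 at 525 in replicate 3. Among Wt libraries, replicate 1 stood apart in Cldn8 at 129, Irf5 at 53, Podxl at 60 and Sdc2 at 6210. Replicate 2 did so in Gata3 at 176, Hoxd8 at 341 and Irgm2 at 397, replicate 3 in Col11a1 at 409 and Gstt3 at 359, and replicate 4 in Adcy9 at 85, Meis1 at 143 and Wnt5b at 40. In each gene of this paragraph the 4 Pkd2-/- libraries lay on 1 side of the 4 Wt libraries, and Gata3 was not called.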

How the results depend on the processing

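The limits of these data are that the mutant libraries are dishes of 1 clone, that the deposited values are rounded after normalization, and that genes at a few counts have folds set by the floor. Under other filters for low values the number of called genes was 1790 in all with 1187 lower at a minimum mean of 1, 1858 with 630 higher and 1228 lower with no filter, and 721 with 421 lower at a minimum mean of 50. With no fold change threshold it was 7390, with 3609 higher and 3781 lower. With each library left out in turn there were 1124 to 1151 called genes, 385 to 423 higher and 721 to 745 lower. Members of the basement membrane and matrix glycoprotein list called lower numbered 6 at a minimum mean of 50, where fewer genes were tested. Members of the unfolded protein and integrated stress response list called higher numbered 7 without the genes of chromosomes 2 and 19, an alternative chosen after seeing the data, where fewer genes were tested. They numbered 11 with each chromosome centred on its median. Without 1 library each, that list gave 11 to 12, the interferon list 19 to 20 and the immediate early list 9 to 12 called higher, and the matrix list gave 11 to 12, the actin list 13 to 14 and the heparan sulfate list 10 called lower.

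Over the genes of chromosome 2 the median log2 fold change was 0.33 with a pseudocount of 5, 0.30 at a minimum mean of 1, 0.25 with no filter, 0.36 at a minimum mean of 50, 0.28 with upper quartile rescaling and 0.33 with the GC and length correction, and 0.33 to 0.34 without 1 library each. For chromosome 19 it was 0.23 with upper quartile rescaling and 0.27 to 0.30 without 1 library each. Centring each chromosome on its median, also chosen after seeing the data, gave 0.0141 for chromosome 2 and 0.0137 for chromosome 19, near 0 by construction. Upper quartile rescaling moved the median of all genes to -0.06.

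The log2 fold change of Pkd2, not called in any setting, was -0.044 with upper quartile rescaling, -0.040 with the GC and length correction and between -0.055 and 0.0709 without 1 library each. Over all settings, 4017 values of named genes kept their direction and side of the threshold, 24 fell short of it and 3 came past it. Bnip3, Chka, Dusp6, Irx3, Itga1, Mal, Nr4a1, Pcolce and Vldlr, all close to a log2 fold change of 1, were those that fell short in some settings, and Atf4 was that which came past it. Without Pkd2-/- replicate 4 the log2 fold change was 0.82 for Dusp6 and 0.73 for Nr4a1.

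The replicate numbers of the labels were tested for pairing. The deviations of same-numbered Wt and Pkd2-/- libraries had correlations of -0.06, -0.02, 0.06 and 0.21, and 1 of 4 Wt libraries correlated best with its own number, so the numbers were not taken to pair the dishes. These correlations are over all genes tested and can miss an order shared by few genes, as that of the immediate early genes above. With a replicate block, limma's adjusted p went from 1.3e-04 to 3.2e-08 for Dusp6 and from 0.0053 to 3.8e-06 for Nr4a1. With the replicate block, 1143 genes were called, 410 higher and 733 lower.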

Other observations

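Some further genes held large changes. The cytoskeletal and vesicle genes of the neuronal list moved both ways, with 4 of 24 members called higher (16.7%) and 6 lower (25%). Uchl1, a ubiquitin hydrolase, had 301, 295, 253 and 262 normalized counts in Wt and 4, 4, 12 and 10 in Pkd2-/- (log2 fold change -5.17 ± 0.25 SE, adjusted p = 2.2e-11), and Dclk1, a kinase on microtubules, went from 212–320 to 14–30. Map1b (130 to 151 in Wt and 397 to 619 in Pkd2-/-), the beta-tubulin gene Tubb3 (105 to 145 in Wt and 384 to 525 in Pkd2-/-) and Mapt, tau (14 to 27 in Wt and 41 to 65 in Pkd2-/-), rose. Of 79 lysosome and autophagy genes, 4 were called in each direction (5.06%), near the 2.98% higher and 5.37% lower over all genes tested. Beside Ctsc the protease gene Ctsf fell (75, 68, 60 and 53 normalized counts in Wt and 0 in all 4 Pkd2-/- libraries, at least 21.3-fold lower). Of the proton pump subunits, Atp6v0a4 rose from 31–44 to 122–143 and Atp6v1b1 fell from 29–76 to 0–2. Both subunits are known from intercalated cells, of whose 13 markers Foxi1 and Kit were at 0 in all 8 libraries.

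Of 46 Toll-like receptor and NF-kappaB genes, 2 were called higher (4.35%) and 5 lower (10.9%). Tlr1 went from 138–190 to 16–25 and Tlr6 from 35–77 to 3–13, neighboring genes with similar sequence between which reads may be split. The complement gene C3 fell from 55–96 to 13–28 and Clu, clusterin, from 301–382 to 54–82, the 2 called of 7 complement genes tested. Casp4, which senses bacterial lipid, went from 87–110 to 19–25 and its neighbor Casp12 from 117–209 to 7–23. Among chromatin genes, of which 3 of 66 were called in each direction (4.55%), also near the share over all genes, the remodeler gene Chd7 had 6, 11, 5 and 23 normalized counts in Wt and 86, 79, 61 and 105 in Pkd2-/- (log2 fold change 2.97 ± 0.33 SE, adjusted p = 9.0e-07). In the Pkd1-/- clone Chd7 had a mean of 67.2. Angptl4, a secreted inhibitor of lipoprotein lipase, fell from 88–152 to 1–7 and Fabp5, a carrier of fatty acids, from 103–130 to 2–9.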
